A study of Caenorhabditis elegans with 26 samples.

Results

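The hedgehog-related and Patched-related genes of Caenorhabditis elegans were described across embryos that differ in X-chromosome dosage compensation. A gene belonged to the set when its symbol starts with wrt-, grd-, grl-, hog-, ptr- or ptc- and a number, and 79 of the 17118 genes measured by a probe set of their own met that rule. They comprised 10 warthog (wrt), 12 groundhog (grd), 30 ground-like (grl), 1 hog, 2 Patched (ptc) and 24 Patched-related (ptr) genes. The first 4 families are grouped here as 53 ligand-like genes, and the ptc and ptr families as 26 receptor-like genes. Another 8 genes of these families in the gene table were not measured alone (grd-4, grd-6, grd-13, grd-15, grd-17, grl-26, grl-32 and ptc-2), and 12 of the 79 lie on the X chromosome.

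In flies and vertebrates, Hedgehog is a secreted protein that cleaves itself, acquires cholesterol and acts through the sterol-sensing receptor Patched. The worm has no Hedgehog of the usual form and no clear Smoothened, the membrane protein that relays the signal elsewhere. It has instead a large set of secreted proteins, many with a Wart or Ground domain and some with the self-cleaving Hog domain, and an expanded set of Patched-like membrane proteins. Many of these genes are active in the epidermis, glia and other cells that secrete apical matrix, and mutants have defects in moulting, cell division and lipid handling.

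Affymetrix arrays measured RNA of embryos released by bleaching from gravid adults, on 26 arrays that the submitters' design text counts as biological replicates. The sdc-2 embryos were XX, of genotype sdc-2(y93), from mothers also fed sdc-2 RNAi bacteria (3 arrays), and were set against N2 wild-type XX embryos from worms fed bacteria with an empty plasmid (3 arrays), both on RNAi plates. The dpy-27 embryos were XX, of genotype dpy-27(y57), and were set against wild-type XX embryos (3 arrays each, NG plates). The XO embryos came from strain TY2222, which carries her-1(hv1y101) and unc-9(e101) together with both xol-1(y9) and sdc-2(y74). They had 8 arrays, against 6 of wild-type XX embryos (egg plates). SDC-2 brings the dosage compensation complex to the X, and DPY-27 is a condensin-like subunit of that complex, which lowers X expression in XX embryos. The XO embryos therefore differ from the wild type in genotype as well as in the number of X chromosomes.

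Sample titles also hold a number that looks like a date, and the 5 such numbers are called date codes 1 to 5 here, earliest first. What was done on that date is not stated. The sdc-2 arrays have code 5 and their wild type code 3, and the dpy-27 arrays have code 1 and their wild type code 2, so in these comparisons the effect of genotype and that of date code cannot be told apart. The XO arrays have code 5 (5 arrays) or code 2 (3 arrays), and the egg-plate wild type code 4 or code 2 (3 arrays each). Only code 2 holds both XO and wild-type arrays of 1 plate type.

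Values are log2 RMA levels, and a log2 change of 1 is a doubling of array signal. Arrays of different plate types had different spreads: the SD of an array's values was 2.00 to 2.06 on RNAi plates, 2.41 to 2.45 on NG plates and 2.27 to 2.32 on egg plates. Levels were therefore compared within a plate type only. sdc-2 itself read 4.30 to 4.55 in XO arrays and 9.08 to 9.48 in wild type (egg plates, code 2), and 9.37 to 9.90 in sdc-2 arrays against 9.93 to 10.09 in wild type. A second sdc-2 probe set read 7.82 to 8.14 in sdc-2 arrays against 9.25 to 9.42 in wild type. dpy-27 read 10.37 to 10.55 in dpy-27 arrays and 10.41 to 10.59 in wild type, and on a dimmer second probe set 5.96 to 6.27 in dpy-27 arrays against 5.13 to 5.54 in wild type. Neither shows a loss of dpy-27 RNA by which the label could be checked. X-linked genes above the median level shifted by a median of 0.47 in sdc-2 and 0.55 in dpy-27 embryos. The marker list of early maternal messages averaged at least 8.80 on every array, and the lists for adult and yolk genes and for sperm averaged 4.83 to 6.50.

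Among the 79 genes, 40 lay above the median level of all genes, 6.4. By family these were 6 of 10 wrt, 2 of 12 grd, 13 of 30 grl, hog-1, both ptc and 16 of 24 ptr genes. The ground-like genes grl-18 and grl-24 and the groundhog gene grd-9 were near background (a mean below the lower quartile of the arrays of their plate type) in all 8 sets of arrays, and another 14 were so in some sets. The neighbours grl-29, grl-30 and grl-31 on chromosome V were all below the median level, and none was called in any of the 5 main comparisons, which are the sdc-2, dpy-27 and XO comparisons and those of the date codes within XO and within wild type. A gene was called when its adjusted p was under 0.05 (limma, Benjamini-Hochberg over 17118 genes). Where 1 gene had several probe sets the brightest was used, and 27 of the 79 probe sets carry a suffix that marks probes shared with other transcripts.

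**Figure D1:**
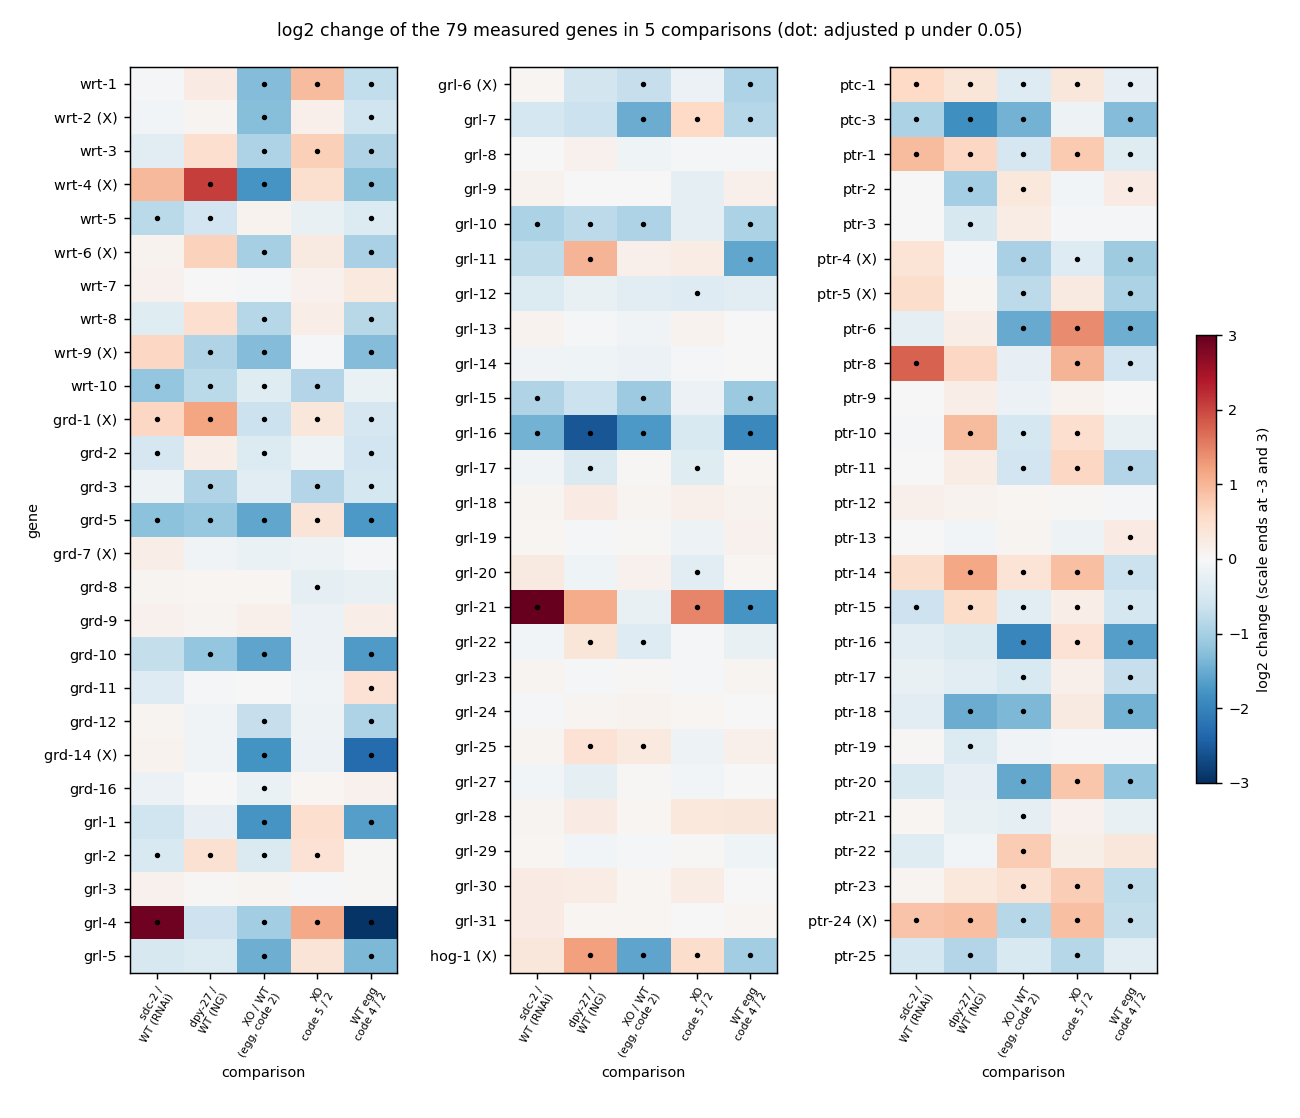
Log2 change of each of the 79 genes (rows, by family; X marks X linkage) in 5 comparisons (columns; the group named first is over the group named second). Black dots mark an adjusted p under 0.05; 17 genes carry one in the sdc-2 column, 28 in the dpy-27 column, 46 in the XO column, 29 in the column of XO date codes and 45 in that of wild-type date codes.

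In sdc-2 embryos 7 of the 79 genes rose and 10 fell, which is 17 genes, beside 8.28% of all genes called up and 11.5% called down. The share called was thus 8.9% up and 12.7% down, close to the background, and the median change of the set was 0.02, as it was over all genes. In bulk RNA from whole embryos, fewer cells of a type and less RNA per cell cannot be told apart, here and in all that follows. The ground-like genes grl-21 and grl-4 and the Patched-related gene ptr-8 had the largest rises, and the ground-like gene grl-16, the groundhog gene grd-5 and the warthog gene wrt-10 the largest falls.

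grl-21, whose product has been linked to lipid storage through the receptor-like gene ptr-24, read 10.51, 10.34 and 10.49 in sdc-2 arrays, against 6.74, 6.58 and 6.42 in wild type. The 2 groups were far apart, and the change was 3.87 (SE 0.54, adjusted p = 3.94e-05). Its relative grl-4 read 10.81, 10.83 and 10.93 in sdc-2 arrays, against 8.23, 8.25 and 7.31 in wild type, a change of 2.93 (SE 0.71, adjusted p = 0.00495). The sdc-2 arrays of grl-4 lay close together, whereas 1 wild-type array was well below the rest. ptr-8 read 7.30, 8.24 and 7.46 in sdc-2 arrays, against 6.12, 5.68 and 5.88 in wild type, a change of 1.78 (SE 0.32, adjusted p = 0.000413). All 3 sdc-2 arrays were above all 3 wild-type arrays. grl-21 and grl-4 are both on chromosome IV and ptr-8 is on chromosome II, so the largest rises were autosomal.

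The other rises were smaller. ptc-1, one of the worm's Patched genes and needed for cytokinesis in the germ line, read 11.08, 11.12 and 11.13 in sdc-2 arrays, against 10.63, 10.51 and 10.39 in wild type (change 0.60, SE 0.13, adjusted p = 0.00249). ptr-1 rose by 0.95 (SE 0.24, adjusted p = 0.00613), and the X-linked genes ptr-24 and grd-1 rose by 0.86 (SE 0.30, adjusted p = 0.0452) and 0.62 (SE 0.17, adjusted p = 0.0122). For these 4 genes the groups did not overlap. The second probe sets of grd-1 and ptc-1 did not follow: with the mean of all probe sets, grd-1 changed by 0.29 (adjusted p = 0.0551) and ptc-1 by 0.32 (adjusted p = 0.0557).

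Falls included the other Patched gene. ptc-3, required for growth and fluid balance, read 9.59, 9.35 and 9.44 in sdc-2 arrays, against 10.40, 10.57 and 10.29 in wild type (change -0.96, SE 0.31, adjusted p = 0.0288). Thus ptc-1 and ptc-3 went opposite ways. grl-16 had the largest fall, with 9.20, 9.05 and 9.14 in sdc-2 arrays against 10.71, 10.73 and 10.19 in wild type (change -1.41, SE 0.46, adjusted p = 0.0319). grd-5 changed by -1.22 (SE 0.40, adjusted p = 0.0332). wrt-10 changed by -1.17 (SE 0.25, adjusted p = 0.00206), while its neighbour on chromosome II, wrt-1, read 11.86 to 11.97 in sdc-2 arrays and 11.79 to 12.23 in wild type and changed by -0.07 (adjusted p = 0.926). The changes of the others were -0.95 for grl-10, -0.91 for grl-15, -0.81 for wrt-5 and -0.61 for ptr-15, with grd-2 and grl-2 smaller in size. In each of the 10 genes that fell, every sdc-2 array lay below every wild-type array. Such separation, here and for the rises above, was also seen in members that were not called, among them grd-10, grd-11, grl-1, grl-7 and ptr-16. Its share over all genes was not computed for any comparison, so here and below such separation adds nothing to the calls.

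Of these 17 calls, 7 held whichever single array was left out (grl-21, grl-4, ptr-8, ptr-1, ptc-1, wrt-10 and wrt-5). The count was 9 without sdc-2 array B, 8 without wild-type array B, and 11 without sdc-2 array A or without wild-type array C. limma called 0 of the 79 genes when date code entered as a random block, and 18 had an unadjusted p under 0.05. The spread behind these tests includes the differences between date codes on egg plates, and when date codes had means of their own 31 of the 79 genes were called (12 up and 19 down). After joint quantile normalisation 9 rose and 7 fell. Shares of all genes called were not computed for such refits, here and below, so their counts have no background to be set against. The late cuticle markers moved in the same embryos: 7 of 20 fell and 2 rose, with array means of 10.05 to 10.23 in sdc-2 and 10.37 to 10.42 in wild type, and 5 of 22 early maternal markers rose. Their part in the changes above was not tested.

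**Figure D2:**
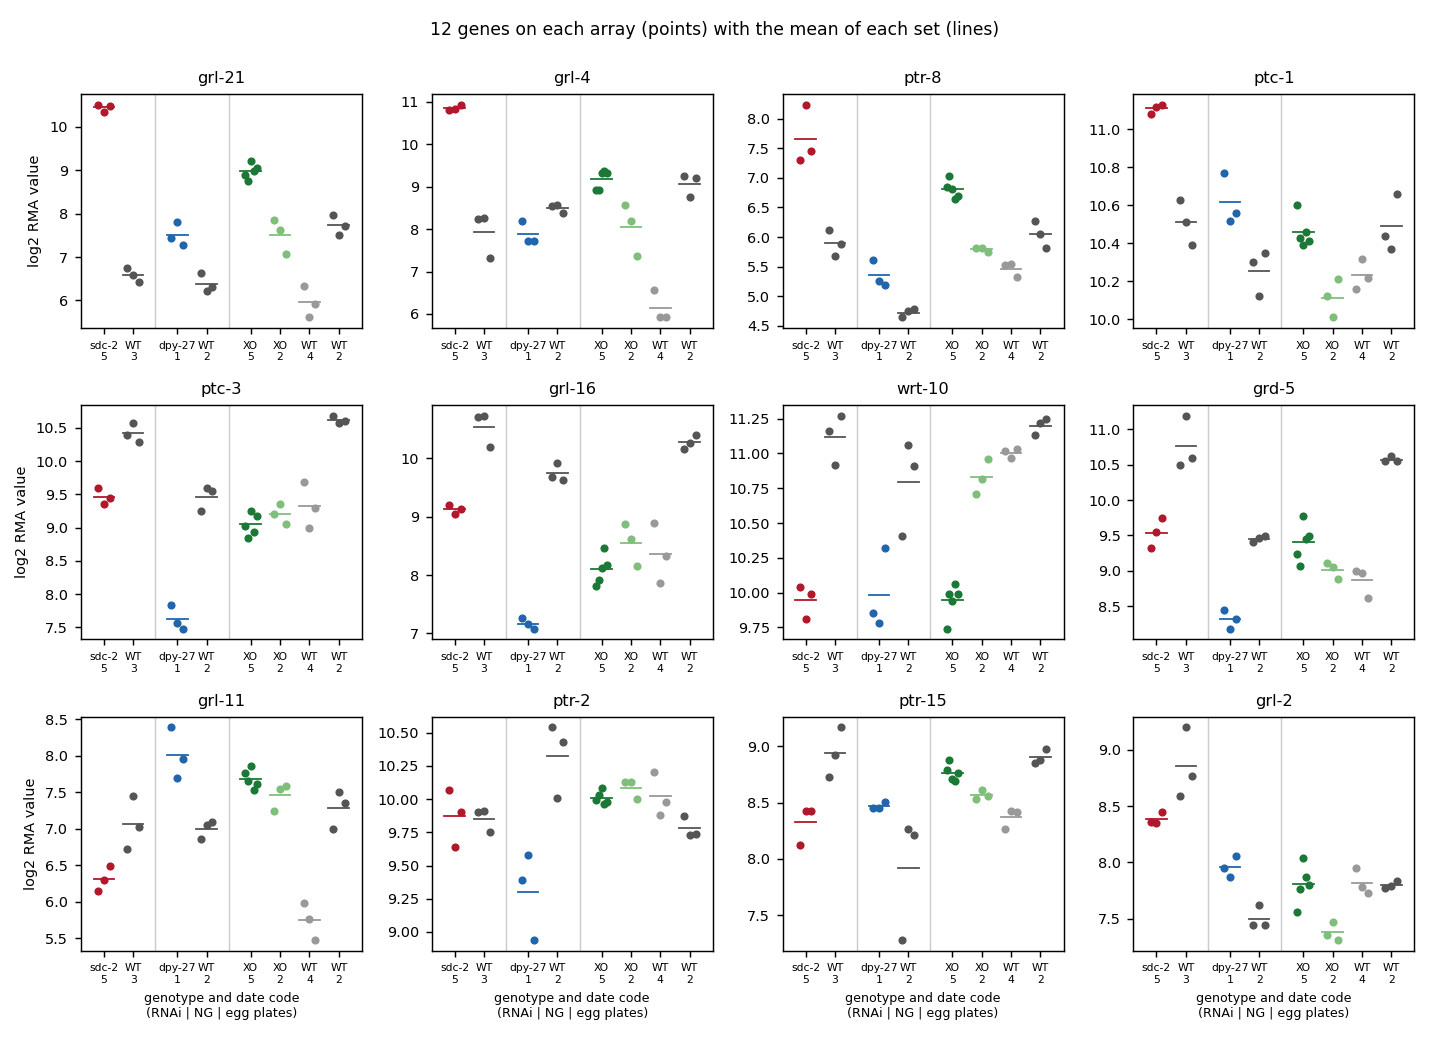
Log2 RMA value (vertical axes, a scale per gene) of 12 genes on every array (points), with the mean of each set as a line; the horizontal axis gives genotype and date code, with RNAi, NG and egg plates parted by grey lines. The grl-21 points of sdc-2 arrays lie at 10.34 to 10.51, above 6.42 to 6.74 in their wild type, and the ptc-3 points of both mutants lie below those of their wild types.

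In dpy-27 embryos 13 genes rose and 15 fell, 28 of 79, beside 17% of all genes called up and 13.5% called down. The median change was -0.02, against 0.03 over all genes. The largest rises were the X-linked genes wrt-4 and hog-1 and the largest falls the autosomal genes grl-16 and ptc-3.

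wrt-4, a warthog gene with a Wart domain, read 9.65, 9.07 and 9.22 in dpy-27 arrays, against 7.18, 7.41 and 7.15 in wild type (change 2.07, SE 0.36, adjusted p = 0.000115). hog-1, which has a Hog domain, read 9.15, 9.13 and 9.69 in dpy-27 arrays, against 7.96, 8.17 and 8.14 in wild type (change 1.24, SE 0.29, adjusted p = 0.00226). grd-1, also X-linked, read 6.86, 6.75 and 6.73 in dpy-27 arrays, against 5.61, 5.70 and 5.45 in wild type (change 1.20, SE 0.17, adjusted p = 1.49e-05). In all 3 the groups did not overlap, as was also so for grd-2, grl-12 and grl-15, which were not called. Autosomal rises were led by ptr-14 (1.16, SE 0.32, adjusted p = 0.00691), grl-11 (1.01, SE 0.37, adjusted p = 0.0405) and ptr-10 (0.96, SE 0.19, adjusted p = 0.000427), a Patched-related gene active in glia. ptr-10 read 8.12, 8.12 and 8.14 in dpy-27 arrays, against 6.87, 7.39 and 7.25 in wild type. The X-linked ptr-24 rose by 0.90 and ptr-1 by 0.63, and ptc-1 rose by 0.36 (SE 0.13, adjusted p = 0.043). The second ptc-1 probe set differed by -0.23, and with the mean of both ptc-1 changed by 0.06 (adjusted p = 0.734), whereas grd-1 so averaged still rose (0.56).

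grl-16 fell furthest, to 7.26, 7.16 and 7.08 in dpy-27 arrays, against 9.68, 9.92 and 9.63 in wild type (change -2.58, SE 0.46, adjusted p = 0.000161). ptc-3 read 7.84, 7.57 and 7.48 in dpy-27 arrays, against 9.25, 9.60 and 9.55 in wild type (change -1.83, SE 0.31, adjusted p = 8.05e-05). Both gaps were several times the spread within either group. The changes were -1.48 (SE 0.34) for ptr-18, -1.17 (SE 0.39) for grd-10 and -1.14 (SE 0.40) for grd-5. The gene next to grd-10 on chromosome IV, grd-3, fell by 0.89 (SE 0.31), with 5.33, 5.12 and 4.49 in dpy-27 arrays against 5.91, 5.96 and 5.76 in wild type. ptr-2 read 9.39, 9.58 and 8.94 in dpy-27 arrays, against 10.54, 10.01 and 10.43 in wild type (change -1.02, SE 0.15, adjusted p = 1.46e-05). Of the 2 other ptr-2 probe sets, both much dimmer, 1 differed by -1.11 and the other by 0.14. wrt-9 was the only X-linked member of the set to fall (-0.90, SE 0.34, adjusted p = 0.0469). Its dimmer second probe set did not follow, with a difference of 0.03.

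Of the 28 calls, 11 held whichever single array was left out: wrt-4, hog-1, grd-1, ptr-14, ptr-10, grl-25, grl-16, ptc-3, ptr-18, ptr-2 and grl-17, the last of which was near background in dpy-27 arrays. A dimmer second grl-25 probe set differed by -0.02. The count of calls was 15 without wild-type array A, 17 without dpy-27 array B, dpy-27 array C or wild-type array B, and 18 without dpy-27 array A. A fit with date code as random block called 6 of the 79 genes (wrt-4, hog-1 and grd-1 up, grl-16, ptc-3 and ptr-2 down). Re-centring of arrays on autosomal medians, which shifted the median of all genes by 0.10, gave 17 rises and 11 falls. The late cuticle markers also moved here, with 11 of 20 lower and 3 higher and array means of 8.89 to 9.06 in dpy-27 and 9.53 to 9.68 in wild type. Epidermal markers went both ways (9 up and 5 down of 16), 8 of 14 markers of glia and excretory canal rose, a list that includes ptr-10, and 7 of 22 early maternal markers fell. Their part was not tested.

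The sdc-2 and dpy-27 comparisons share no arrays, and 12 of the 79 genes were called in both, 70.6% of those called in sdc-2 and 42.9% of those called in dpy-27. Over all genes the shared calls were 57.3% of the sdc-2 and 37.1% of the dpy-27 calls. In 10 of the 12 the direction was the same, beside 92.2% of the shared calls over all genes: grd-1, ptc-1, ptr-1 and ptr-24 rose, and grd-5, grl-10, grl-16, ptc-3, wrt-5 and wrt-10 fell in both mutants. For ptc-1 and grd-1 the shared rise rests on the brighter of 2 probe sets, since the other differed by 0.03 and -0.23 for ptc-1 and by -0.05 and -0.08 for grd-1 in sdc-2 and dpy-27 embryos. grl-2 and ptr-15 went opposite ways. grl-2, a gene of the excretory duct and pore, read 8.36, 8.35 and 8.45 in sdc-2 arrays against 8.59, 9.20 and 8.77 in wild type, and 7.95, 7.87 and 8.06 in dpy-27 arrays against 7.44, 7.62 and 7.44 in wild type.

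The difference between the sdc-2 and dpy-27 changes passed the test for 8 genes, 4 with a larger and 4 with a smaller change in sdc-2, beside 8.91% of all genes. The difference was 3.55 for grl-4, 2.75 for grl-21, 1.52 for wrt-9 and 1.04 for ptr-2, and -1.76 for grl-11, -1.16 for ptr-15, -1.02 for ptr-10 and -0.92 for grl-2. grl-21 read 7.44, 7.81 and 7.27 in dpy-27 arrays against 6.64, 6.21 and 6.31 in wild type, a change of 1.12 that did not pass the test (adjusted p = 0.121). grl-4 read 8.19, 7.73 and 7.71 in dpy-27 arrays against 8.55, 8.57 and 8.37 in wild type (change -0.62, adjusted p = 0.563). The differences for ptr-2, grl-2 and ptr-15 held without any single array, and those for grl-4, grl-21, grl-11, ptr-10 and wrt-9 did not. The count was 3 without sdc-2 array A or NG wild-type array A, 4 without RNAi wild-type array C or dpy-27 array C, and 5 without NG wild-type array B. With date code as random block limma called 0, with 10 at an unadjusted p under 0.05. Since values spread differently on the 2 plate types, these differences also carry any difference in scale between them.

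On egg plates, XO embryos had lower levels of more than 1 in 2 members of the set than wild-type XX embryos of the same date code. In this code-2 comparison 41 of 79 genes fell and 5 rose, 51.9% and 6.3%, beside 19.6% of all genes called down and 21.9% called up. The median change was -0.34, against 0.02 over all genes. Falls came from every family: 8 of 10 wrt, 7 of 12 grd, 10 of 30 grl, 13 of 24 ptr, both ptc genes and hog-1. Among the 40 brighter genes 30 fell, 75.0%, whereas 28.6% of all genes above the median level did.

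The receptor-like gene ptr-16 fell furthest, with 6.49, 6.28 and 5.76 in XO arrays against 8.07, 8.06 and 8.25 in wild type (change -1.95, SE 0.17, adjusted p = 3.93e-07). The groundhog gene grd-14, on the X, read 8.58, 8.44 and 8.19 in XO arrays against 10.05, 10.08 and 10.47 in wild type (change -1.80, SE 0.18, adjusted p = 1.94e-06). grl-1 read 6.93, 7.12 and 6.34 in XO arrays against 8.71, 8.40 and 8.58 in wild type (change -1.77, SE 0.23, adjusted p = 1.7e-05). The groups were more than 1 log2 unit apart in each. The changes of wrt-4 (-1.76), grl-16 (-1.73), grd-10 (-1.59), hog-1 (-1.58) and grd-5 (-1.56) came next, each with an adjusted p of 3.89e-05 or less. Both Patched genes fell, ptc-3 with a change of -1.41 (SE 0.15) and ptc-1 with one of -0.38 (SE 0.09). The 5 genes that rose changed less. ptr-22 read 7.22, 7.31 and 7.39 in XO arrays against 6.55, 6.55 and 6.56 in wild type (change 0.76, SE 0.15, adjusted p = 0.000599). ptr-23 (0.46), ptr-14 (0.40), grl-25 (0.30) and ptr-2 (0.30) were the others, and the arrays of the 2 groups overlapped for ptr-23.

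Within 1 genotype the date code separated the set as strongly. Wild-type XX embryos of code 4 had 42 of 79 genes lower and 3 higher than those of code 2, 53.2% and 3.8%, beside 18.9% of all genes called down and 21.2% called up, with a median change of -0.41. This comparison and that of XO with wild type share the 3 wild-type arrays of code 2, so they are not independent. Re-centred on autosomal medians, which shifted the median of all genes by 0.17, the wild-type comparison had 37 lower and 16 higher. The shares of all genes called after re-centring were not computed, so these counts have no background. The mean over the 40 brighter genes was 8.47 to 8.82 on XO arrays of code 5, 8.23 to 8.49 on XO arrays of code 2, 8.17 to 8.41 on wild-type arrays of code 4, and 9.16 to 9.23 on wild-type arrays of code 2. The wild-type arrays of code 2 thus lay above the other 3 sets, with no overlap.

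grl-4 changed most between the wild-type date codes, with 6.57, 5.92 and 5.94 in code 4 against 9.26, 8.76 and 9.20 in code 2 (change -2.93, SE 0.25, adjusted p = 5.58e-07). grd-14 read 8.08, 8.17 and 7.40 in code 4 against 10.05, 10.08 and 10.47 in code 2 (change -2.32, SE 0.18, adjusted p = 2.51e-07). These are changes without any difference in genotype, and they are larger than any fall in XO embryos within code 2. Next in size were grl-16 (-1.92), grl-21 (-1.78), grd-5 (-1.71), grd-10 (-1.70), grl-1 (-1.65) and ptr-16 (-1.64). grd-11 (0.44), ptr-13 (0.25) and ptr-2 (0.24) were higher in code 4. grl-11, singled out after its values were seen, passed the test between the wild-type codes and did not in XO embryos of code 2. It read 5.99, 5.77 and 5.48 in wild type of code 4 and 7.0, 7.51 and 7.36 in wild type of code 2, while XO arrays of code 2 read 7.24, 7.55 and 7.58 (change in XO 0.16, adjusted p = 0.427).

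Early maternal and mid-embryo markers differed between the wild-type date codes, and fewer of the late cuticle markers did. Of 22 early maternal markers 15 were higher in code 4, with array means of 9.28 to 9.37 in code 4 and 8.80 to 9.0 in code 2, and 13 of 19 mid-embryo zygotic markers were higher (7.39 to 7.53 in code 4, 6.86 to 6.99 in code 2). Of 20 late cuticle markers 5 were lower and 1 higher, with array means of 9.90 to 10.02 in code 4 and 10.12 to 10.20 in code 2. Over all genes 18.9% were called down and 21.2% up. Neuronal markers were lower in 10 of 12, with array means of 8.70 to 8.81 in code 4 and 9.51 to 9.54 in code 2, and body wall muscle markers in 9 of 13. In XO against wild type of code 2, 8 of 22 early maternal markers were higher and 10 of 13 muscle, 19 of 30 precuticle and 11 of 20 late cuticle markers were lower. Of these lists, 6 muscle, 10 precuticle and 5 late cuticle markers are X-linked. In that comparison 48.5% of X-linked genes and 19.6% of all genes were called down, and 21.9% of all genes up. No maternal or neuronal marker was near background in any set. The part of embryonic stage in the changes of the hedgehog-related genes was not tested.

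**Figure D3:**
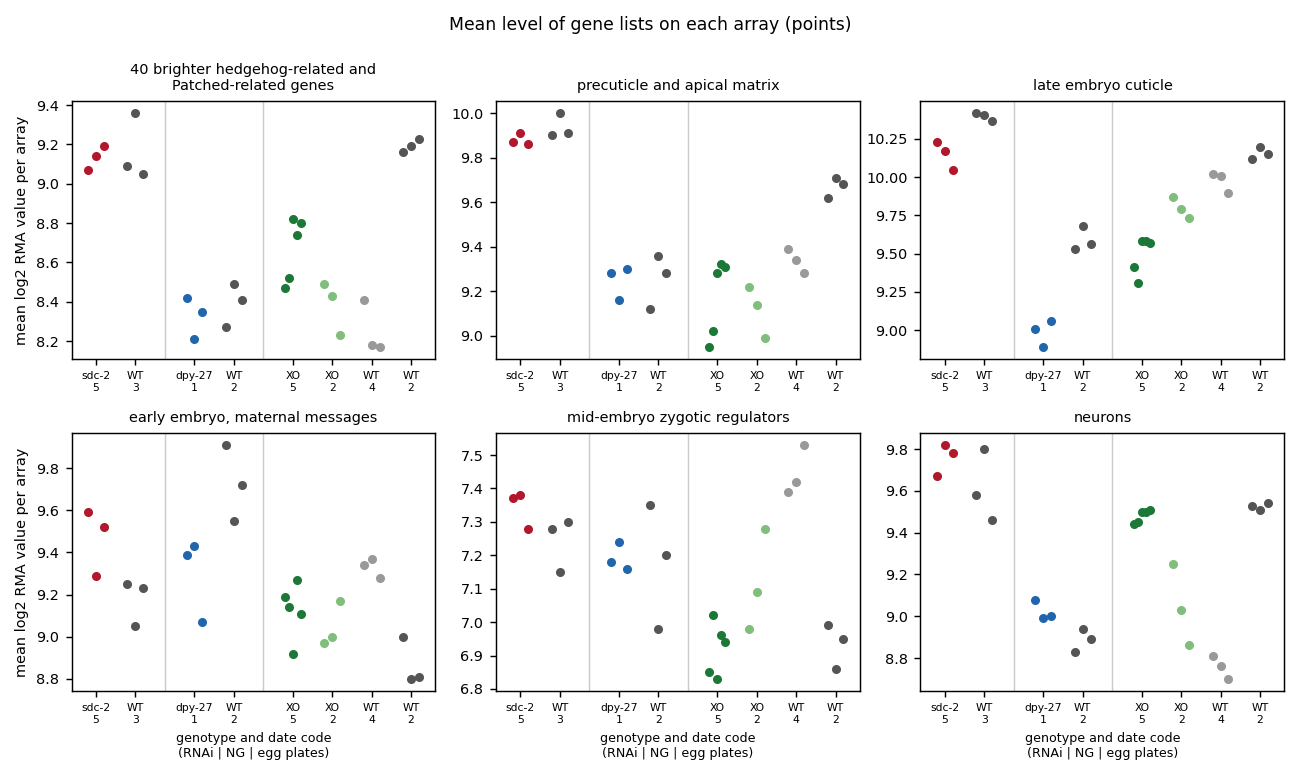
Mean log2 RMA value on each array (points) of the 40 brighter hedgehog-related and Patched-related genes and of 5 marker lists, by genotype and date code (horizontal axis; RNAi, NG and egg plates parted by grey lines). On egg plates the wild-type arrays of code 2 are highest for the 40 genes (9.16 to 9.23) and those of code 4 highest for the early maternal list (9.28 to 9.37).

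With wild type of code 4 in place of code 2, a choice made after the data were seen, XO arrays of code 2 had 9 genes higher and 8 lower, beside 14.3% of all genes called up and 11.5% called down. The median change was then -0.02. XO arrays of code 5 had 10 genes higher and 33 lower against wild type of code 2 (background 23.2% and 22.4%), and 21 higher and 14 lower against wild type of code 4 (background 24.3% and 24.8%). The preponderance of lower genes in XO embryos thus appeared against 1 set of wild-type arrays and not against the other. These comparisons share arrays with those above and with each other.

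**Figure D4:**
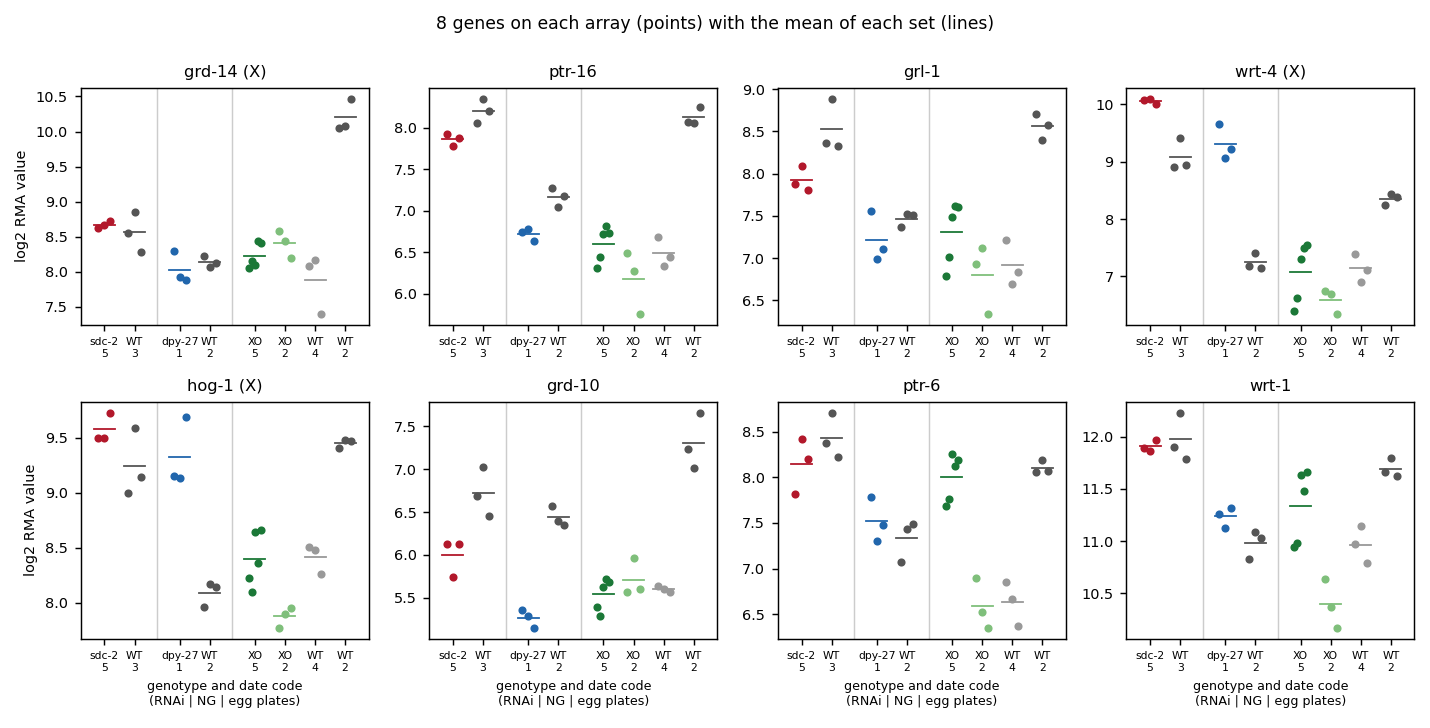
Log2 RMA value (vertical axes, a scale per gene) of 8 genes on every array (points) with the mean of each set (lines), by genotype and date code (horizontal axis). For grd-14, ptr-16, grl-1 and grd-10 the XO arrays of both codes and the wild-type arrays of code 4 lie together below the wild-type arrays of code 2; for ptr-6 and wrt-1 the XO arrays of code 5 lie above those of code 2.

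Between the date codes of XO embryos, 21 genes were higher and 8 lower in code 5 than in code 2, 26.6% and 10.1%, beside 19.4% of all genes called up and 21.1% called down. Re-centring gave 20 higher and 13 lower. Of 26 receptor-like genes 12 were higher and 2 lower, and of 53 ligand-like genes 9 were higher and 6 lower, a difference between the families that was not tested. grl-21 rose most, to 8.90, 8.75, 9.21, 8.99 and 9.04 in code 5 against 7.86, 7.62 and 7.07 in code 2 (change 1.46, SE 0.18, adjusted p = 1.01e-05). ptr-6 read 7.69, 7.76, 8.26, 8.12 and 8.19 in code 5 against 6.90, 6.52 and 6.35 in code 2 (change 1.41, SE 0.15, adjusted p = 3.16e-06). ptr-8 read 6.84, 7.04, 6.81, 6.64 and 6.70 in code 5 against 5.82, 5.81 and 5.74 in code 2 (change 1.01, SE 0.10, adjusted p = 2.3e-06). None of these groups overlapped, as was also so for grd-9, grl-9 and grl-28, which were not called. grl-4 (1.13) ranked between ptr-6 and ptr-8, and wrt-1 (0.94), ptr-14 (0.91), ptr-24 (0.91) and ptr-20 (0.84) followed ptr-8.

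The falls in XO arrays of code 5 were led by grd-3 (-0.89, SE 0.16), wrt-10 (-0.89, SE 0.08) and ptr-25 (-0.86, SE 0.17). wrt-10 read 9.74, 9.99, 9.94, 10.06 and 9.99 in code 5 against 10.71, 10.82 and 10.96 in code 2, while its neighbour wrt-1 was higher in code 5. These neighbours therefore went opposite ways. The other falls were under 0.41 in size (ptr-4, grl-12, grl-17, grl-20 and grd-8), and the arrays overlapped for ptr-4, grl-12 and grd-8. Within code 5, the mean over the 40 brighter members was 8.47 and 8.52 in arrays A and B and 8.74 to 8.82 in C, D and E. wrt-4 had that order, with 6.39 and 6.63 in A and B and 7.30 to 7.54 in the others. ptr-8 instead read highest in A and B. The number of genes with either order was not counted.

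Marker lists also moved between the XO codes. Of 14 markers of glia and excretory canal, ptr-10 among them, 8 were higher in code 5 and 0 lower, with array means of 7.69 to 7.98 in code 5 and 7.36 to 7.47 in code 2. Of 10 pharynx markers 5 were higher and 0 lower. Late cuticle markers were lower in 12 of 20 and higher in 4 (array means 9.31 to 9.58 in code 5 and 9.73 to 9.87 in code 2), mid-embryo markers lower in 10 of 19 and higher in 4, and sperm markers lower in 10 of 15 (5.26 to 5.35 in code 5 and 5.65 to 5.73 in code 2). Their part in the changes of the hedgehog-related genes was not tested.

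Levels of grl-21, grl-4 and ptr-8 were higher and that of wrt-10 lower in sdc-2 arrays of code 5 than in their wild type, and likewise in XO arrays of code 5 than in XO arrays of code 2. In sdc-2 arrays of code 5 against wild type of code 3 the changes were 3.87, 2.93, 1.78 and -1.17, and in XO arrays of code 5 against code 2 they were 1.46, 1.13, 1.01 and -0.89. XO arrays of code 5 against wild type of code 2 also had higher grl-21 (1.25) and ptr-8 (0.76) and lower wrt-10 (-1.26), but grl-4 changed by 0.10 (adjusted p = 0.76). Against wild type of code 4 the change of grl-4 was 3.03. These comparisons share the XO arrays. The other genes called in sdc-2 embryos were mixed between XO arrays of code 5 and code 2. Of them, grd-1, ptc-1, ptr-1 and ptr-24 were higher in both comparisons. In contrast, grd-5, grl-2 and ptr-15 were lower in sdc-2 arrays and higher in XO arrays of code 5. The rest (grd-2, grl-10, grl-15, grl-16, ptc-3 and wrt-5) were not called between the XO codes. grl-21, grl-4, ptr-8 and wrt-10 were singled out here after their values were seen. The share of sdc-2 calls over all genes that were also called between the XO codes was not computed. The overlap therefore has no background. Whether the changes in sdc-2 arrays go with genotype or with date code cannot be told apart.

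The 12 X-linked genes were 4 warthog genes (wrt-2, wrt-4, wrt-6 and wrt-9), 3 groundhog genes (grd-1, grd-7 and grd-14), grl-6, hog-1, and the receptor-like genes ptr-4, ptr-5 and ptr-24. In sdc-2 embryos grd-1 and ptr-24 rose and no member fell, with a median change of 0.37, beside 30.7% of X-linked genes called up and 0.638% called down. In dpy-27 embryos 4 rose (wrt-4, hog-1, grd-1 and ptr-24) and wrt-9 fell, with a median of 0.08, beside 39.2% of X-linked genes up and 3.87% down. Among the 9 brighter X-linked members the median was 0.33 in sdc-2 and 0.09 in dpy-27, against 0.47 and 0.55 over all X-linked genes above the median level. Only grd-1 and ptr-24 were called higher in both mutants.

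The members ranged widely in each mutant. In sdc-2 arrays wrt-4 read 10.08, 10.10 and 10.01 against 8.90, 9.42 and 8.95 in wild type, a change of 0.97 that narrowly missed the threshold (SE 0.36, adjusted p = 0.0577) although the arrays did not overlap. wrt-2, a bright warthog gene, read 10.95, 10.71 and 11.29 in dpy-27 arrays against 10.82, 11.01 and 10.85 in wild type (change 0.09, SE 0.23), and it changed by -0.08 (SE 0.23) in sdc-2. grd-14 changed by 0.11 in sdc-2 and -0.11 in dpy-27, both with an SE of 0.51. wrt-9 read 7.64, 7.35 and 7.55 in sdc-2 arrays against 6.89, 7.31 and 6.48 in wild type, a change of 0.62 that did not pass the test (adjusted p = 0.231). It fell in dpy-27 embryos, as given above, with 5.14, 5.01 and 5.03 in dpy-27 arrays against 5.94, 6.09 and 5.84 in wild type. The dimmer second wrt-9 probe set differed by -0.16 in sdc-2, 0.03 in dpy-27 and -0.05 in XO embryos of code 2.

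For the receptor-like ptr-4, which acts in the apical matrix of the epidermis, 2 probe sets differed: the brighter changed by -0.05 in dpy-27 (adjusted p = 0.921) and the other by 0.91. ptr-5 changed by 0.54 in sdc-2 (SE 0.25) and 0.07 in dpy-27 (SE 0.25), and grl-6 by 0.06 and -0.54 (SE 0.24 each). None of these passed the test on the probe set used. When probe sets with shared probes were left out, ptr-4 was read from its other probe set and was called higher in dpy-27. wrt-6 changed by 0.11 in sdc-2 and by 0.70 in dpy-27 (SE 0.30 each, adjusted p = 0.875 and 0.0804). grd-7 was near background in 6 of the 8 sets and was called in none of the 5 main comparisons.

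In XO embryos 11 of the 12 X-linked genes fell within code 2, all but grd-7, with a median of -0.98, beside 48.5% of X-linked genes called down. The same 11 were lower in wild type of code 4 than in wild type of code 2, with a median of -0.96, beside 30.1% of X-linked genes called down, in a comparison that shares the code-2 wild-type arrays. Of the 67 autosomal members, 30 fell and 5 rose in XO embryos (background for autosomal genes 15% down and 25.2% up), so lower values were not limited to the X. Against wild type of code 4, XO arrays of code 2 had hog-1 (-0.54, SE 0.13, adjusted p = 0.00594) and wrt-2 (-0.68, SE 0.20, adjusted p = 0.0196) lower and grd-14 higher (0.52, SE 0.18, adjusted p = 0.0488). There 27.6% of X-linked genes were called down. hog-1 read 8.22, 8.10, 8.64, 8.36 and 8.66 in XO arrays of code 5 and 7.77, 7.90 and 7.95 in those of code 2, against 8.51, 8.48 and 8.26 in wild type of code 4 and 9.41, 9.48 and 9.47 in wild type of code 2. wrt-2 read 10.31, 10.27, 10.99, 10.91 and 11.01 in XO arrays of code 5 and 10.80, 10.62 and 10.26 in those of code 2, against a mean of 11.23 ± 0.20 (SD, n = 3) in wild type of code 4 and 11.77, 11.94 and 11.78 in wild type of code 2. It was called lower in XO embryos over all 4 pairs of date codes, as no other X-linked member of the set was. These pairs share arrays with each other. The share of all X-linked genes called lower in all 4 was not computed, so this has no background.

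**Figure D5:**
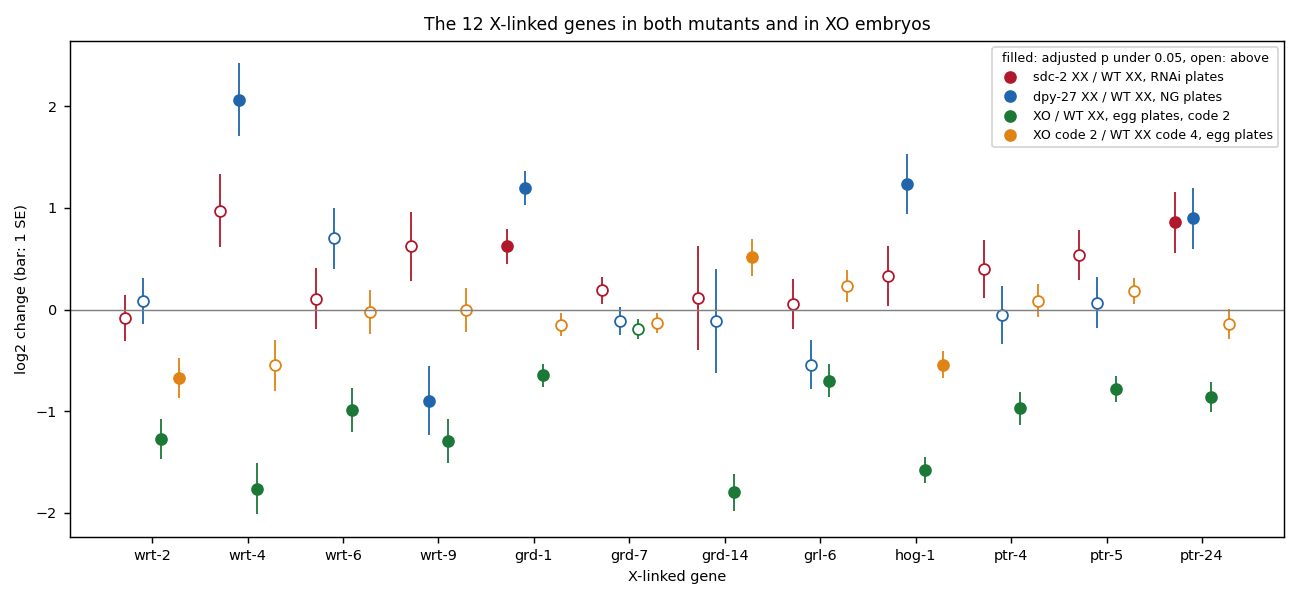
Log2 change (vertical axis, bars 1 SE) of the 12 X-linked genes (horizontal axis) in sdc-2 embryos, dpy-27 embryos, XO embryos against wild type of code 2, and XO embryos of code 2 against wild type of code 4; filled points have an adjusted p under 0.05. The change in XO embryos is below 0 for all 12 genes against wild type of code 2 (-0.19 to -1.80), and is called lower for 2 of them against wild type of code 4.

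Other genes of the pathway were read from a list of 23 hedgehog-related, sterol-sensing and conserved pathway genes, of which 22 were measured and 6 are X-linked. In sdc-2 embryos 6 rose and 2 fell, beside 8.28% of all genes up and 11.5% down, and 30.7% of X-linked genes up. The 4 largest rises were all X-linked: kin-20, a casein kinase (1.32, SE 0.26), lon-2, a glypican (1.17, SE 0.21), ncr-1, a Niemann-Pick type sterol transporter (0.97, SE 0.22), and tra-4 (0.70, SE 0.18). hhat-2, related to the acyltransferase that modifies Hedgehog, fell (-0.71). In dpy-27 embryos 6 rose and 1 fell, beside 17% of all genes up and 13.5% down, and 39.2% of X-linked genes up. They were led by lon-2 (1.46, SE 0.21) and the autosomal gene che-14, related to the Hedgehog exporter Dispatched (1.46, SE 0.27), and sbp-1, a sterol regulatory factor, fell (-0.83).

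In XO embryos of code 2, 10 of the 22 fell and 2 rose, beside 19.6% of all genes down and 21.9% up, and 48.5% of X-linked genes down. scp-1, related to the sterol sensor SCAP, changed by -1.83 (SE 0.21), daf-6, a Patched-related gene of the amphid channel, by -1.20 (SE 0.17), kin-20 by -1.13 (SE 0.15) and qua-1, which encodes a Hog-domain protein, by -0.84 (SE 0.14). In wild type of code 4, in the comparison that shares the code-2 wild-type arrays, 9 fell and 3 rose (background 18.9% down and 21.2% up), led by scp-1 (-2.07), daf-6 (-0.96) and qua-1 (-0.73). In XO arrays of code 5 against code 2, 9 rose and 4 fell (background 19.4% up and 21.1% down), led by che-14 (0.88, SE 0.09) and kin-20 (0.82, SE 0.14). The pathway list thus also stood highest in the wild-type arrays of code 2 on egg plates, where its array means were 8.59 to 8.71, against 8.44 to 8.58 in XO arrays of code 5, 8.26 to 8.35 in XO arrays of code 2 and 8.42 to 8.45 in wild type of code 4.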

How the data were processed

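The deposited table holds log2 expression values of 22548 probe sets on 26 arrays, and RMA is named in the submitters' processing notes without a version. No scanner intensities were used. Probe sets naming 1 gene (20766) were kept, and the one with the highest mean over all arrays stood for its gene, giving 17118 genes, of which 2352 are X-linked by the RefSeq gene table (WBcel235, names and chromosomes only). limma 3.58.1 in R 4.3.3 (lmFit, eBayes) was fitted on all genes: group means over 26 arrays for sdc-2 and dpy-27, and a mean per group and date code over the 14 egg-plate arrays for the others, with Benjamini-Hochberg adjustment and a threshold of 0.05. The number of arrays limits the precision, and replicates within a set correlated at 0.984 to 0.998. In a simulation of the sdc-2 comparison 95 of 100 genes changed by a log2 of 1 and 100 of 100 changed by 2 were recovered, and 10 of 16918 others were called. The simulated noise had the spread within a group and date code only. It lacked the differences between date codes that enter the spread of the sdc-2 test. These figures therefore do not measure recovery or false calls in the reported comparison. The genes, lists and tests were chosen with earlier results of these data known. For each comparison all called genes were to be named up to 16, otherwise the 8 largest rises and falls, with every X-linked member, the ptc genes and hog-1. Genes named because a call held without any array, was shared, or changed with the processing, and neighbours, were picked after their values were seen. No sequence or coordinate was used here.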

Additional observations from a re-analysis of the deposited data

Results flagged for a closer look

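The sdc-2 and dpy-27 changes differed, by a test of the difference itself (limma, adjusted over all genes), for 8 of 79 genes, beside 8.91% of all genes. The log2 difference, sdc-2 minus dpy-27, was 3.55 for grl-4 (adjusted p = 0.0274), 2.75 for grl-21 (0.0238), 1.52 for wrt-9 (0.0476) and 1.04 for ptr-2 (0.00234). It was -1.76 for grl-11 (0.0354), -1.16 for ptr-15 (0.0115), -1.02 for ptr-10 (0.0169) and -0.92 for grl-2 (0.00935). The 2 comparisons were made on different plate types and between different date codes, so the difference cannot be told apart from these. Without 1 array or another 5 of the 8 calls were lost, all but those of ptr-2, grl-2 and ptr-15, and with date code as random block limma called 0. With that block 10 had an unadjusted p under 0.05.

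Single arrays stood apart from the others of their group in 7 of 158 sets of values tested. Each group was XO or wild type on egg plates, with both date codes pooled. In a uniform group chance alone gives about 1 in 20. A difference between date codes widens the range and can hide a single array, so that rate is not a guide here. XO array A of code 5 was lowest for grl-6 (6.06) and grl-22 (4.38) and highest for grl-28 (5.91). In XO arrays of code 2, array C was lowest for grd-16 (4.29), array B lowest for ptr-21 (6.14) and array A highest for grl-19 (4.83). Wild-type array A of code 4 was highest for grl-19 (4.95). grl-6 and ptr-21 are the only 2 of these genes never near background.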

How the results depend on the processing

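Leaving out probe sets with shared probes, which left 58 of the 79 genes, gave 10 calls in sdc-2, 18 in dpy-27, 29 in XO against wild type of code 2, 18 between XO codes, 29 between wild-type codes and 5 for the difference of sdc-2 and dpy-27. Among genes called in either fit, it turned the sign for ptr-11 (-0.76), ptr-2 (0.14) and ptr-4 (0.91) in dpy-27. It did so too for ptr-23 in XO (-0.19), ptr-4 between XO codes (0.24) and ptr-2 in the difference (-0.087). In each case another probe set of the gene was then read. At an adjusted p under 0.01 the calls were 7, 13 and 2 for sdc-2, dpy-27 and their difference. Array weights gave 28 in sdc-2, 47 between XO codes and 22 for the difference. Means per group and date code gave 31 in sdc-2 and 21 for the difference, and arrays of the compared plate types alone 28 and 19. The date code as a random block (correlation 0.62) gave 0, 6 and 0 for sdc-2, dpy-27 and the difference. Without single arrays the calls were 8 to 12 in sdc-2, 15 to 20 in dpy-27 and 3 to 7 for the difference. XO against wild type with date codes ignored called 27. Among genes called in either fit, signs turned for grl-21 (1.59), grl-4 (1.14), ptr-8 (0.67), ptr-11 (0.25), ptr-1 (0.18), ptr-6 (0.10), ptr-24 (0.068), ptr-15 (0.053), grl-17 (-0.22) and grd-11 (-0.28). Against wild type of code 4 instead, XO arrays of code 2 had 17, and 16 of the 46 genes called within code 2 had the other sign, 2 of them called (grd-14 and grl-4). XO arrays of code 5 had the other sign for 5 of the 46 (1 called) against wild type of code 2 and for 27 (12 called) against wild type of code 4. The cause of these shifts was not tested. Single-gene values were also compared under the other alternatives, those pairs of date codes left out. Of these, 7648 kept their side of the threshold, 413 lost a call and 253 gained one. Another 16, called in either fit, turned sign. A change of sign in a gene called in neither fit was not counted. Replicate letters did not pair the samples (correlations of same-letter deviations -0.33 to 0.25), and the replicate block gave 33 calls in sdc-2, 38 in dpy-27, 47 in XO of code 2, 21 between XO codes and 44 between wild-type codes. What array signal limits is the dim genes, 17 of which were near background in some set.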
